A study of Saccharomyces cerevisiae with 9 samples.

Results

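Glycogen synthesis and breakdown in budding yeast rest on a small set of genes, and 10 of them were followed here among the 7036 genes with a promoter and a gene body window in the data. The members were taken by systematic identifier, with no cut on their values, but the list was chosen with earlier results of these data known. Medians over the members are therefore given without a test. The members are the synthases GSY1 (YFR015C) and GSY2 (YLR258W), the branching enzyme gene GLC3 (YEL011W), the phosphorylase gene GPH1 (YPR160W), the debranching enzyme gene GDB1 (YPR184W), the glycogenins GLG1 (YKR058W) and GLG2 (YJL137C), and the phosphatase-targeting genes PIG1 (YLR273C), PIG2 (YIL045W) and GAC1 (YOR178C). All 10 were present in both tables and passed the filter on low counts. The data are from chromatin immunoprecipitation followed by sequencing (ChIP-seq), in which DNA bound by a tagged protein is pulled down and read. Every cell was of the W303 background, had 1 of 3 proteins fused to a tandem affinity purification (TAP) tag, was grown at 30 degrees to log phase and was then kept for 10 min in medium without glucose. The tagged protein was Rvb1, Rvb2 or Pgk1, and rabbit IgG, which binds the tag, was used for each pulldown. Each tagged strain gave 2 pulldown libraries and 1 input library of chromatin before pulldown, 9 libraries in all. No unstarved cells and no untagged strain are among these libraries, and separate cultures are not named in the labels for the 2 pulldowns of 1 strain. The p-values therefore measure the spread between libraries only, and that spread may be technical. All 9 libraries shared 1 fit, so the inputs also set the spread used to compare pulldowns. At promoters the inputs differed less from each other than replicate pulldowns did.

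Yeast stores glucose as glycogen when sugar runs low. Glycogenin makes a short primer on itself, glycogen synthase extends it from UDP-glucose, and the branching enzyme adds side chains. On the way back, phosphorylase releases glucose phosphate from chain ends and the debranching enzyme removes the stubs. Synthase is active when dephosphorylated by the phosphatase Glc7, which Gac1 brings to glycogen and for which Pig1 and Pig2 are related targeting subunits. Several of these genes, GSY1, GLC3 and GPH1 among them, are known to be induced when glucose is withdrawn. Rvb1 and Rvb2 are AAA+ ATPases that act together in chromatin remodelling complexes, and Pgk1 is a glycolytic enzyme used here as the control pulldown.

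Values are read counts per window of 500 bp, so windows of different genes cover equal lengths. They are given as CPM, counts scaled to a common library size with TMM factors, which sets a typical window to a similar level in all libraries. The median promoter window lay at 132 to 136 CPM and the median gene body window at 130 to 133 CPM in the 9 libraries. Pgk1 replicate 1 was the shallowest library, with 806134 counts at promoters, and the Pgk1-strain input the deepest, with 4636420. No count exceeded 1151, close to the 1148 distinct reads of 75 bases that can touch such a window, and the members' input counts reached 42.4% to 68.4% of that number and their pulldown counts 6.79% to 56.1%. With counts corrected for this limit the Rvb1 against Pgk1 promoter value of GSY1 went from 0.47 to 0.63 and PIG1, at -0.40, was no longer called. The libraries also differed in range: the interquartile range of the log2 ratio of a pulldown to its own input over all promoter windows was 0.81 in Rvb1 replicate 1, 0.47 in Rvb1 replicate 2, 0.65 and 0.32 in the Rvb2 replicates, 0.45 in Pgk1 replicate 1 and 0.13 in Pgk1 replicate 2. Replicate 2 of Pgk1 was thus the flattest pulldown and the one nearest to its input, and results against Pgk1 are given with and without each of its replicates.

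GSY1, GLC3, GPH1 and, less evenly, GSY2 stood out among the members in level. This group was singled out after its values were seen. The promoter of GSY1, a synthase gene, had 328 and 256 CPM in the Rvb1 replicates, 307 and 237 in the Rvb2 replicates, 267 and 164 in the Pgk1 replicates, and 156, 153 and 155 in the inputs of the Rvb1, Rvb2 and Pgk1 strains. Each of the 6 pulldowns exceeded the inputs. Pgk1 replicate 1 lay within the range of the Rvb libraries, while Pgk1 replicate 2 lay close to the inputs. Of all 7034 promoter windows, both libraries lay above every input at 2682 for Rvb1, 2446 for Rvb2 and 1355 for Pgk1. GLC3, which encodes the branching enzyme, had 286 and 268 CPM in Rvb1, 300 and 254 in Rvb2, 238 and 159 in Pgk1, and 146 to 148 in the inputs. Here the 4 Rvb libraries lay above both Pgk1 libraries. GPH1, the phosphorylase gene, had 279 and 290 CPM in Rvb1, 312 and 213 in Rvb2, 282 and 149 in Pgk1, and 144 to 148 in the inputs, so that the Rvb2 and Pgk1 replicates overlapped. The second synthase gene, GSY2, had 225 and 196 CPM in Rvb1, 244 and 177 in Rvb2, 268 and 158 in Pgk1, and 142 to 148 in the inputs, with Pgk1 replicate 1 the highest of all 9.

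In the Rvb libraries, these 4 promoters ranked between percentile 89.3 (GSY2, Rvb2 replicate 2) and percentile 98.9 (GSY1, Rvb1 replicate 1) of all promoter windows. In Pgk1 replicate 1 their counts were 179 (GLC3) to 212 (GPH1), beside a median of 99 over all promoter windows. In Pgk1 replicate 2 they were 384 (GPH1) to 422 (GSY1), beside a median of 345. These 4 promoters thus also lay above the median window in the control pulldown. Their input windows also ranked high, from percentile 75.3 for GSY2 to 96.7 for GSY1, though over a narrow range of CPM.

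**Figure D1:**
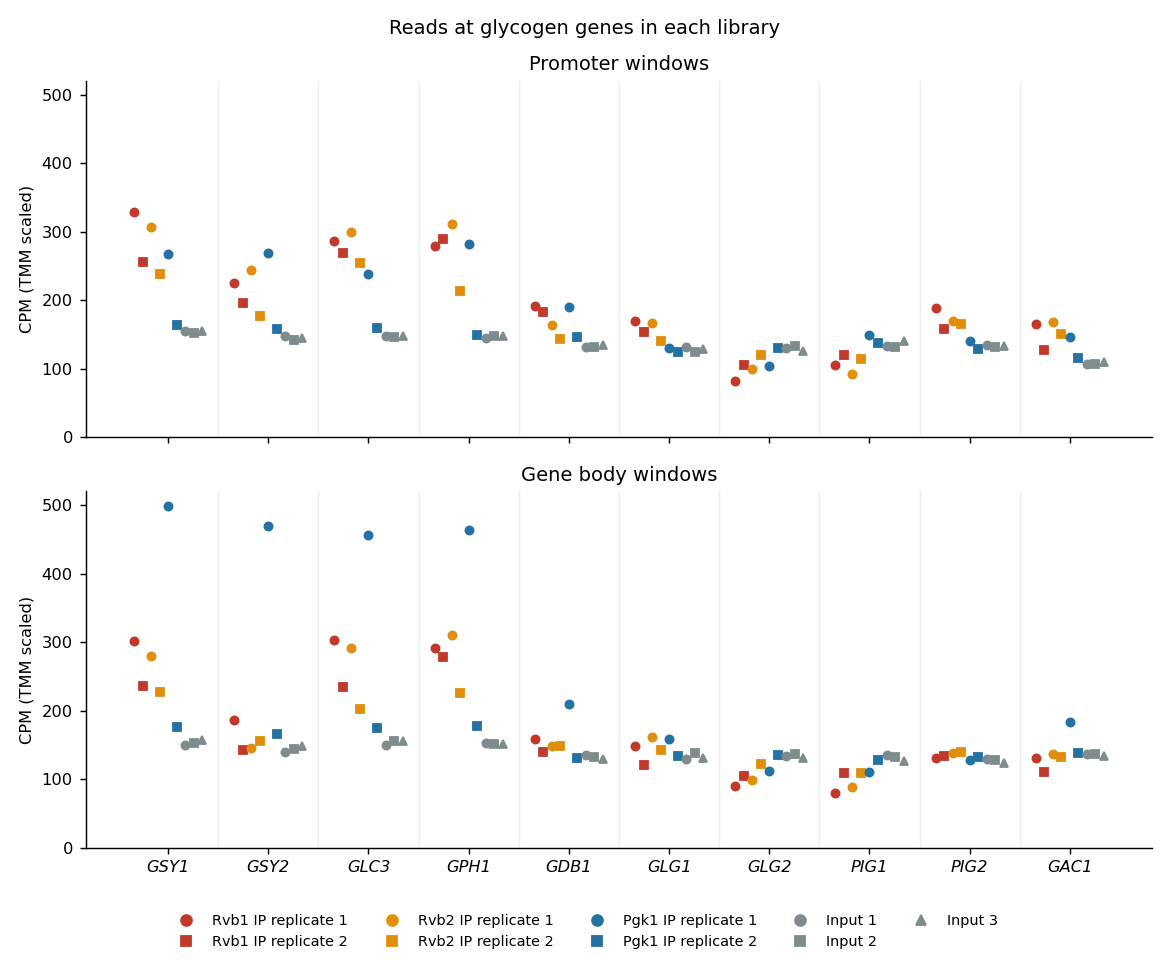
CPM of each glycogen gene in each of the 9 libraries, promoter windows above and gene body windows below; colours give the group, symbols the replicate. GSY1, GLC3 and GPH1 lie above 200 CPM in the Rvb libraries in both windows, while Pgk1 replicate 1 reaches 456 to 498 CPM at the gene bodies of GSY1, GSY2, GLC3 and GPH1.

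The other members lay nearer to a typical window. GDB1, for the debranching enzyme, had 192 and 182 CPM at its promoter in Rvb1, 164 and 143 in Rvb2, 190 and 147 in Pgk1, and 131 to 134 in the inputs. GLG1, a glycogenin gene, had 169 and 153 CPM in Rvb1, 166 and 140 in Rvb2, 130 and 125 in Pgk1, and 124 to 132 in the inputs. In GLG1 both Pgk1 libraries lay within the range of the inputs and the 4 Rvb libraries above them. PIG2 had 188 and 157 CPM in Rvb1, 169 and 165 in Rvb2, 141 and 128 in Pgk1, and 131 to 134 in the inputs. GAC1 had the lowest input levels of the 10, at 106 to 109 CPM, with 166 and 128 in Rvb1, 168 and 150 in Rvb2, and 146 and 115 in Pgk1. At the promoters of PIG2 and GAC1 the 4 Rvb libraries were again above every input. Of all 7034 promoter windows this held for both Rvb1 libraries at 2682 and for both Rvb2 libraries at 2446.

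GLG2 and PIG1 went the other way. The promoter of GLG2, the second glycogenin gene, had 81.5 and 105 CPM in Rvb1, 99.3 and 120 in Rvb2, 104 and 130 in Pgk1, and 125 to 133 in the inputs. PIG1 had 105 and 120 CPM in Rvb1, 92.5 and 114 in Rvb2, 149 and 138 in Pgk1, and 132 to 141 in the inputs. For both genes every Rvb library was below every input, and for PIG1 also below both Pgk1 libraries. Of all 7034 promoter windows, both Rvb1 libraries lay below every input at 2773 and both Rvb2 libraries at 2628. Below both Pgk1 libraries they lay at 1981 and 1455. Members of a pair with like roles thus differed in level: GLG1 exceeded GLG2, and PIG2 exceeded PIG1, in each of the 4 Rvb libraries at the promoter.

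Against the inputs, all 10 promoters passed the test in Rvb1, 8 higher and 2 lower (edgeR quasi-likelihood test, Benjamini-Hochberg adjusted p under 0.05 over 7034 windows). Among all promoter windows the same call was made for 51.8%, with 25.4% higher and 26.4% lower. The median log2 fold change of the members was 0.49, and that of all promoter windows was close to 0. GPH1 rose by 0.96 (SE 0.26, adjusted p = 0.0101), GSY1 by 0.92 (SE 0.24, adjusted p = 0.00937) and GLC3 by 0.91 (SE 0.22, adjusted p = 0.00677), all on the log2 scale. GSY2, GDB1 and GAC1 rose by 0.55, 0.50 and 0.48, PIG2 by 0.39 and GLG1 by 0.34. GLG2 fell by 0.49 (SE 0.16) and PIG1 fell by 0.28 (SE 0.10). The count of 10 became 6 without the input of the Rvb2 strain, where 29.5% of all promoters were called. It was 0 without Rvb1 replicate 1, where 0% were, and 0 with the strain's own input as the only control, where 0.782% were.

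In Rvb2 edgeR called 0 of the 10 promoters against the same inputs, and 0% of all 7034 promoter windows. At an unadjusted p under 0.05 there were 8 members, beside 38% of all promoter windows, and DESeq2 called 6 members beside 21.3% of all windows. GLC3 stood at 0.91 (SE 0.22), GPH1 at 0.84 (SE 0.26), GSY1 at 0.82 (SE 0.25), GAC1 at 0.55, GSY2 at 0.54 and PIG1 at -0.37. The edgeR count was 7 without either Rvb1 replicate or either Pgk1 replicate, where 18.1% to 30.3% of all promoters were called, and 6 without Rvb2 replicate 2, where 18.6% were.

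The control pulldown was above the inputs at several of the same promoters. For Pgk1 edgeR and DESeq2 called 0 members, beside 0% of all promoter windows by edgeR and 4.61% by DESeq2. With edgeR 2 members had an unadjusted p under 0.05, beside 9.62% of all promoter windows. GSY2 stood at 0.52 (SE 0.22), GPH1 at 0.52 (SE 0.27), GSY1 at 0.46 (SE 0.25) and GLC3 at 0.41 (SE 0.22). The 2 Pgk1 libraries differed here: relative to its own input GSY1 stood at 0.78 in replicate 1 and 0.08 in replicate 2, and GPH1 at 0.93 and 0.01. Without replicate 2 edgeR called 5 of the 10 promoters for Pgk1, beside 12.3% of all promoters in that fit.

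**Figure D2:**
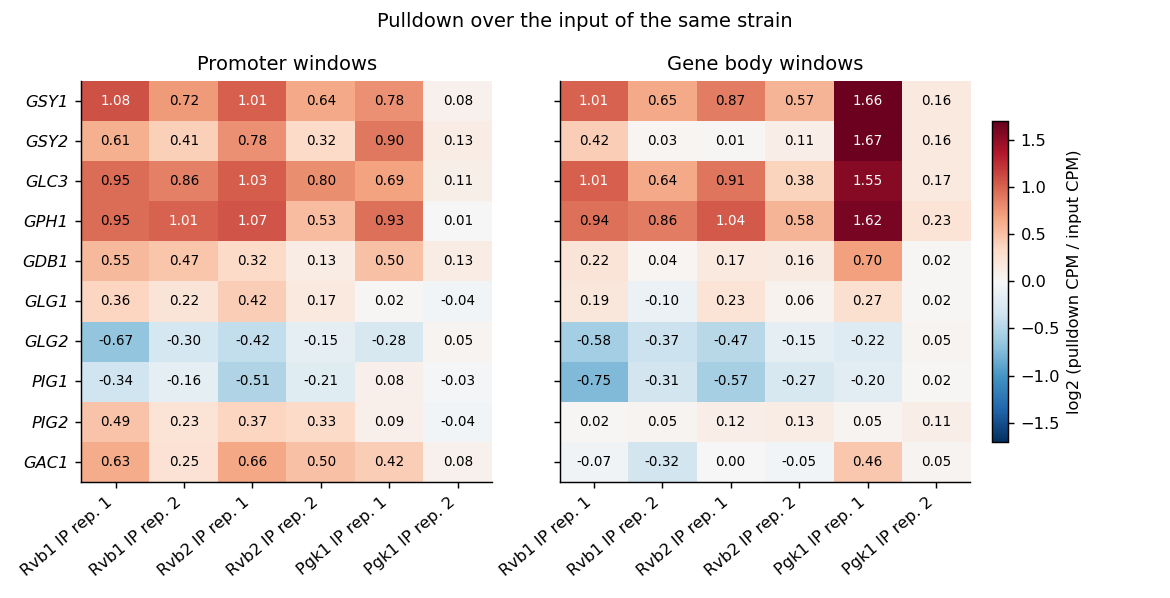
Log2 ratio of each pulldown to the input of the same strain for the 10 glycogen genes, promoters on the left and gene bodies on the right; rows are genes, columns are the 6 pulldowns, and red marks values above the input. GSY1, GLC3 and GPH1 are red in both windows of every Rvb library, GLG2 and PIG1 are blue in both windows of every Rvb library, and Pgk1 replicate 2 runs from -0.04 to 0.23.

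Set against Pgk1, which asks what the Rvb proteins recovered beyond a control protein, 2 promoters rose and 1 fell in Rvb1. Of all promoters 24.3% passed, 12.3% higher and 12% lower, so 3 of 10 is near the background. GLG1 rose by 0.36 (SE 0.11, edgeR adjusted p = 0.0333), PIG2 rose by 0.39 (SE 0.13, adjusted p = 0.0413) and PIG1 fell by 0.34 (SE 0.12, adjusted p = 0.0480). At these 3 promoters the Rvb1 and Pgk1 libraries did not overlap, nor did they at GLC3, which makes 3 members wholly above Pgk1 and 1 wholly below, beside 28.4% and 28.2% of all promoter windows. GLC3, GSY1 and GPH1 had larger log2 values, 0.51 (SE 0.25), 0.47 (SE 0.28) and 0.43 (SE 0.29), none of which passed, and their Pgk1 replicates lay far apart. GAC1 stood at 0.29, GDB1 at 0.20, GSY2 at 0.02 and GLG2 at -0.38. The median of the members was 0.33, and that of all promoter windows was -0.05.

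The Rvb1 result rested on single libraries. The count of 3 became 0 without Rvb1 replicate 1, without Pgk1 replicate 2 and without the input of the Rvb1, Rvb2 or Pgk1 strain, 5 without Rvb1 replicate 2 and 7 without Pgk1 replicate 1. The share of all promoters called went to 0% without Rvb1 replicate 1, 10.3% to 13.8% without Pgk1 replicate 2 or 1 of the inputs, 44.9% without Rvb1 replicate 2 and 27.3% without Pgk1 replicate 1. With the pulldowns alone the count was 0, beside 6.23%. Without Pgk1 replicate 2 the median of the members was 0.03 and GSY2 stood at -0.34, GPH1 at 0.01 and GSY1 at 0.13. Without Pgk1 replicate 1 GPH1 stood at 0.93, GSY1 at 0.84, GLC3 at 0.81 and GSY2 at 0.42, and GSY1, GLC3, GPH1, GDB1 and GAC1 were then called beside GLG1 and PIG2. GLG1 and PIG2, whose Pgk1 replicates lay close together, stayed between 0.27 and 0.42 and between 0.24 and 0.50 whichever library was left out, while PIG1 stayed between -0.42 and -0.24.

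For Rvb2 against Pgk1 edgeR and DESeq2 called 0 of the 10 promoters, beside 0% of all promoter windows by edgeR and 3.16% by DESeq2. At an unadjusted p under 0.05 there were 4 members, beside 17.4% of all promoter windows. GLC3 stood at 0.50 (SE 0.25), GAC1 at 0.36 (SE 0.13), GSY1 at 0.36 (SE 0.28), PIG2 at 0.33 (SE 0.13), GPH1 at 0.31 (SE 0.30), GLG1 at 0.26 (SE 0.11) and PIG1 at -0.43 (SE 0.12). Both Rvb2 libraries lay above both Pgk1 libraries at GLC3, GLG1, PIG2 and GAC1, a share of members of 4 in 10 beside 21.8% of all promoter windows, and below them at PIG1, beside 20.7%. The median was 0.29, beside -0.03 for all promoter windows, and without Pgk1 replicate 2 it was 0.06. Rvb1 and Rvb2 were compared with the same 2 Pgk1 libraries, so their like values are not separate evidence.

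Between Rvb1 and Rvb2 edgeR and DESeq2 called 0 of the 10 promoters and 0 of the 10 gene bodies. Of all windows edgeR called 0% of either kind, and DESeq2 0.0142% of promoters and 0% of gene bodies. At an unadjusted p under 0.05 edgeR found 0 members in both windows, beside 5.91% of all promoters and 7.36% of all gene bodies. The promoter values ran from -0.26 (SE 0.18) at GLG2 to 0.29 (SE 0.15) at GDB1. At GSY1, GLC3 and GPH1 they were 0.11 (SE 0.27), 0.00 (SE 0.24) and 0.12 (SE 0.29), each smaller than its SE, and differences of that size were not detectable with 2 libraries a group.

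At gene bodies the order of the groups changed for the genes of the first group. GSY1 had 302 and 235 CPM in Rvb1, 280 and 228 in Rvb2, 498 and 176 in Pgk1, and 150 to 157 in the inputs. GLC3 had 303 and 235 CPM in Rvb1, 292 and 202 in Rvb2, 456 and 175 in Pgk1, and 150 to 156 in the inputs. GPH1 had 292 and 278 CPM in Rvb1, 310 and 226 in Rvb2, 464 and 178 in Pgk1, and 151 to 153 in the inputs. In each of these genes Pgk1 replicate 1 was the highest of the 9 libraries. Pgk1 replicate 2 was below the 4 Rvb libraries and above the inputs. Of all 7035 gene body windows, both libraries lay above every input at 2657 for Rvb1, 2334 for Rvb2 and 1525 for Pgk1.

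The paralogous synthase genes parted at their gene bodies. GSY2 had 187 and 142 CPM in Rvb1 and 146 and 156 in Rvb2, beside 139 to 148 in the inputs, so the Rvb libraries overlapped the inputs. In Pgk1 it had 470 and 165 CPM, with replicate 1 above the other 8 libraries as at GSY1. The difference between GSY1 and GSY2 was not tested. The synthase genes are similar in sequence, and the handling of reads that match both was not given in the sources used here, so their separate values are uncertain.

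The remaining gene bodies held less signal. GDB1 had 210 CPM in Pgk1 replicate 1, against 129 to 158 in the other 8 libraries. GAC1 had 183 CPM in Pgk1 replicate 1, against 110 to 138 elsewhere. GLG1 and PIG2 kept to 121 to 162 and 123 to 140 CPM over all 9 libraries. GLG2 had 90.0 and 104 CPM in Rvb1 and 98.2 and 123 in Rvb2, and PIG1 had 79.9 and 108 in Rvb1 and 89.1 and 110 in Rvb2. Inputs of these 2 genes lay at 127 to 136 CPM, above every Rvb library. Of all 7035 gene body windows, both Rvb1 libraries lay below every input at 2775 and both Rvb2 libraries at 2433.

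In Rvb1 against the inputs, 1 gene body rose and 2 fell, while 48.9% of all gene body windows were called, 23.2% higher and 25.7% lower. GPH1 rose by 0.91 (SE 0.33, edgeR adjusted p = 0.0312), PIG1 fell by 0.50 (SE 0.15, adjusted p = 0.0135) and GLG2 fell by 0.48 (SE 0.12, adjusted p = 0.00778). GSY1 and GLC3 both stood at 0.81 (SE 0.34 and 0.33) and did not pass. The count of 3 was 0 without Rvb1 replicate 1, 1 without the input of the Rvb1 or the Rvb2 strain, and 5 without Pgk1 replicate 1 or 2. All gene bodies called in those fits were 0%, 21.4% and 23.3%, and 55.8% and 55.7%. For Rvb2 edgeR called 0% of all gene body windows and 0 members, with 4 members at an unadjusted p under 0.05, beside 30.4% of all gene bodies, and 1 DESeq2 call beside 13.6%. That edgeR count was 1 without either Rvb1 replicate, 3 without Pgk1 replicate 1 and 2 without Pgk1 replicate 2, beside 15.4%, 12.9%, 10.1% and 9.37% of all gene bodies in those fits. GPH1 stood at 0.82 (SE 0.33), GSY1 at 0.72 (SE 0.34) and GLC3 at 0.68 (SE 0.33) there. For Pgk1, where edgeR also called 0% and 0 members, GSY1 stood at 1.11 (SE 0.34), GSY2 at 1.10 (SE 0.30), GPH1 at 1.06 (SE 0.33) and GLC3 at 1.01 (SE 0.33). DESeq2 called 4 members in that comparison beside 3.7% of all gene bodies, and edgeR without Pgk1 replicate 2 called 5 beside 8.76%. With all libraries, 4 members had an unadjusted p under 0.05, beside 8.54% of all gene bodies.

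Against Pgk1, 0 of the 10 gene bodies passed in Rvb1 by edgeR, beside 13.8% of all gene body windows, and DESeq2 called 1, beside 18.7%. At an unadjusted p under 0.05 there were 4 members, beside 36.8% of all gene bodies. The edgeR count was 2 without Rvb1 replicate 2, and 1 without either Rvb2 or either Pgk1 replicate, where 0.213% (Pgk1 replicate 2) to 42.1% (Rvb1 replicate 2) of all gene bodies were called. GSY2 stood at -0.91 (SE 0.34), GLG2 at -0.43 (SE 0.14), PIG1 at -0.40 (SE 0.17) and GAC1 at -0.30 (SE 0.13). The median of the members was -0.26, beside -0.05 for all gene body windows, and it was 0.015 without Pgk1 replicate 1 and -0.54 without Pgk1 replicate 2. In Rvb2, edgeR and DESeq2 each called 0 members and 0% of all gene bodies. With edgeR 1 member had an unadjusted p under 0.05, GSY2 with -1.03 (SE 0.35), beside 10.8% of all gene bodies. Without Pgk1 replicate 2 edgeR called 1 member in Rvb2, GSY2 at -1.64, beside 0.0426% of all gene bodies. The median was -0.22, beside -0.03 for all windows. These values turned on Pgk1 replicate 1: without it the Rvb1 values of GSY1, GLC3 and GPH1 went from -0.30, -0.21 and -0.15 to 0.61, 0.62 and 0.68, that of GSY2 went to 0.00, and the median in Rvb2 was 0.12. Without Pgk1 replicate 2 GSY2 stood at -1.51 in Rvb1.

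The ratio of promoter to gene body reads within a library needs no scaling for depth, but its typical value over all genes differed between libraries, as given below. It separated the Rvb pulldowns from the Pgk1 pulldowns at most glycogen genes. GSY1 had a ratio of 1.43 and 1.21 in Rvb1, 1.31 and 1.10 in Rvb2, 0.552 and 0.917 in Pgk1, and 0.957 to 1.01 in the inputs. GSY2 had 1.59 and 1.54 in Rvb1, 1.99 and 1.20 in Rvb2, 0.589 and 0.942 in Pgk1, and 0.945 to 1.03 in the inputs. GLC3 had 1.25 and 1.27 in Rvb1, 1.23 and 1.33 in Rvb2, 0.538 and 0.895 in Pgk1, and 0.906 to 0.959 in the inputs. In these 3 genes the 4 Rvb libraries held more reads at the promoter than in the gene body, whereas both Pgk1 libraries held fewer, and the Pgk1 ratios were below every input.

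GPH1 followed the same order, with 1.26 and 1.16 in Rvb1, 1.20 and 1 in Rvb2, 0.625 and 0.828 in Pgk1 and 0.919 to 0.948 in the inputs. GAC1 had 1.67 and 1.29 in Rvb1, 1.47 and 1.20 in Rvb2, 0.821 and 0.823 in Pgk1, and 0.746 to 0.793 in the inputs, so both Pgk1 libraries were slightly above the inputs there. GLG1 had 1.51 and 1.41 in Rvb1, 1.23 and 1.04 in Rvb2, and 0.845 and 0.923 in Pgk1. At 2 genes the Rvb and Pgk1 libraries overlapped. PIG1 had 1.74 and 1.23 in Rvb1, 1.24 and 1.10 in Rvb2, and 1.38 and 1.06 in Pgk1. GDB1 had 1.60 and 1.45 in Rvb1, 1.31 and 1.03 in Rvb2, and 0.935 and 1.10 in Pgk1, so its Rvb2 replicate 2 lay below Pgk1 replicate 2.

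All genes have to be set beside these ratios, because promoters in general held more reads in the Rvb libraries. The median ratio over all genes was 1.30 and 1.11 in the Rvb1 replicates, 1.18 and 1.05 in the Rvb2 replicates, 1.02 and 0.994 in the Pgk1 replicates and 0.984 to 0.991 in the inputs. The median over the members was 1.55 and 1.28 in Rvb1, 1.27 and 1.10 in Rvb2, 0.833 and 0.932 in Pgk1, and 0.945 to 0.963 in the inputs. The members' median thus exceeded that of all genes in the Rvb libraries, by little in Rvb2 replicate 2, and lay below it in the Pgk1 libraries and inputs. Of the 10 members, 7 exceeded the library's own median in Rvb1 replicate 1 and 6 in Rvb2 replicate 2. All 10 did in Rvb1 replicate 2 and Rvb2 replicate 1.

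**Figure D3:**
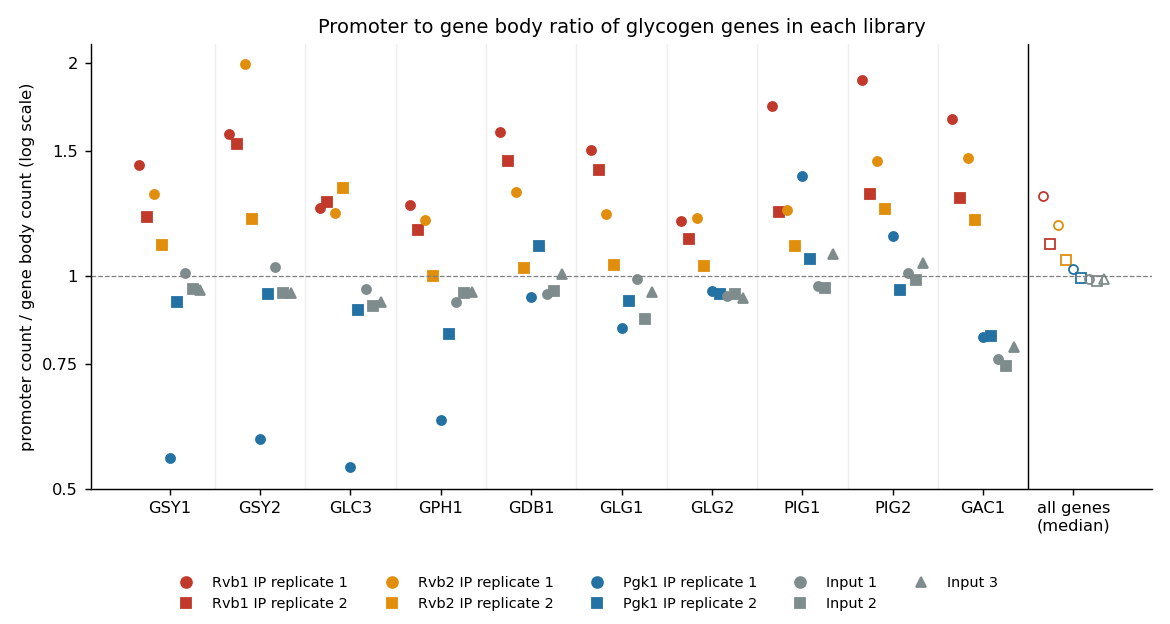
Promoter count divided by gene body count, on a log scale, for each glycogen gene in each of the 9 libraries; open symbols at the right give the median ratio of all genes. Rvb libraries lie at or above 1 for all 10 genes, and Pgk1 replicate 1 falls to 0.538 to 0.625 at GSY1, GSY2, GLC3 and GPH1.

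In a joint fit of both windows, the promoter of 8 of the 10 genes was higher relative to its gene body in Rvb1 than in Pgk1 (edgeR quasi-likelihood test of the interaction of window and group, with the library as a block, adjusted p under 0.05 over 7035 genes). Of all genes 28.4% were called, 24.6% higher and 3.84% lower. GSY2 had the largest value of the members, 1.03 (SE 0.24, adjusted p = 0.0226), followed by GAC1 with 0.88 (SE 0.15, adjusted p = 0.0180), GSY1 with 0.86 (SE 0.20, adjusted p = 0.0216), GLC3 with 0.81 (SE 0.18, adjusted p = 0.0217) and GPH1 with 0.73 (SE 0.14, adjusted p = 0.0180). GLG1, PIG2 and GDB1 had 0.71, 0.68 and 0.56 and were called too. PIG1 and GLG2, with 0.40 and 0.30, were not. The median of the members was 0.72 and that of all genes 0.28, so part of each value is a shift that all genes share. For 9 of the 10 genes both Rvb1 ratios exceeded both Pgk1 ratios, as they did for 48.5% of all genes.

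The count of 8 rested on single libraries as well. It was 0 without Rvb1 replicate 1, without the input of the Rvb1 or the Rvb2 strain and with the pulldowns alone, and 4 without Pgk1 replicate 2. Of all genes 0% were called without Rvb1 replicate 1 or either of those inputs, 0.0853% with the pulldowns alone and 0.697% without Pgk1 replicate 2. With TMM scaling over the joined table it was 3, beside 18% of all genes. Leaving out Pgk1 replicate 1, where the gene body signal was high, gave 0.55, 0.74, 0.49 and 0.55 for GSY1, GSY2, GLC3 and GPH1, and leaving out replicate 2 gave 1.28, 1.41, 1.23 and 0.96.

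In Rvb2 the joint fit called 0 of the 10 genes, and 0% of all genes, with 5 members at an unadjusted p under 0.05 beside 17% of all genes. GSY2 stood at 0.99 (SE 0.25), GLC3 at 0.83 (SE 0.19), GSY1 at 0.71 (SE 0.20), GAC1 at 0.67 (SE 0.15) and GPH1 at 0.58 (SE 0.14). The members' median was 0.49, beside 0.15 for all genes, and for 8 of the 10 both Rvb2 ratios exceeded both Pgk1 ratios, as for 36.4% of all genes. Without Pgk1 replicate 2 the count was 3, beside 0.455% of all genes. Between Rvb1 and Rvb2 the joint fit called 0 members and 0% of all genes, with GDB1 at 0.42 (SE 0.16) and GLG1 at 0.39 (SE 0.15) the 2 members at an unadjusted p under 0.05, beside 8.51% of all genes. DESeq2 was not run on the joint fit.

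Pgk1 was also set against the inputs for the 4 genes singled out above, and none of them passed. The promoter of GSY1 relative to its gene body stood at -0.41 (SE 0.17) in Pgk1, GLC3 at -0.37 (SE 0.16), GPH1 at -0.36 (SE 0.12) and GSY2 at -0.34 (SE 0.20). These lay between percentiles 1.06 and 1.40 of all genes. The 4 genes were picked from the same libraries after their values were seen, so their percentiles are not a test. In this comparison edgeR called 0 members and 0% of all genes, with 3 members at an unadjusted p under 0.05 beside 4.99% of all genes. The 2 Pgk1 libraries differed at these genes, as the ratios of 0.552 and 0.917 at GSY1 show. Against the inputs, which leave the Pgk1 libraries out of the contrast, all 10 genes were called higher in Rvb1, where 46.6% of all genes were, with GAC1 the largest at 0.98 (SE 0.12) and a median of 0.61 beside 0.32 for all genes. In that comparison GSY1, GLC3 and GPH1 had 0.45, 0.44 and 0.37, nearer to the median of all genes. In Rvb2 against the inputs GAC1 was the only member called, at 0.77 (SE 0.12, edgeR adjusted p = 0.0295), where 3% of all genes were called higher and the members' median was 0.28 beside 0.18. The joint fit against the inputs was run in no alternative setting, so how far these calls rest on single libraries is not known.

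**Figure D4:**
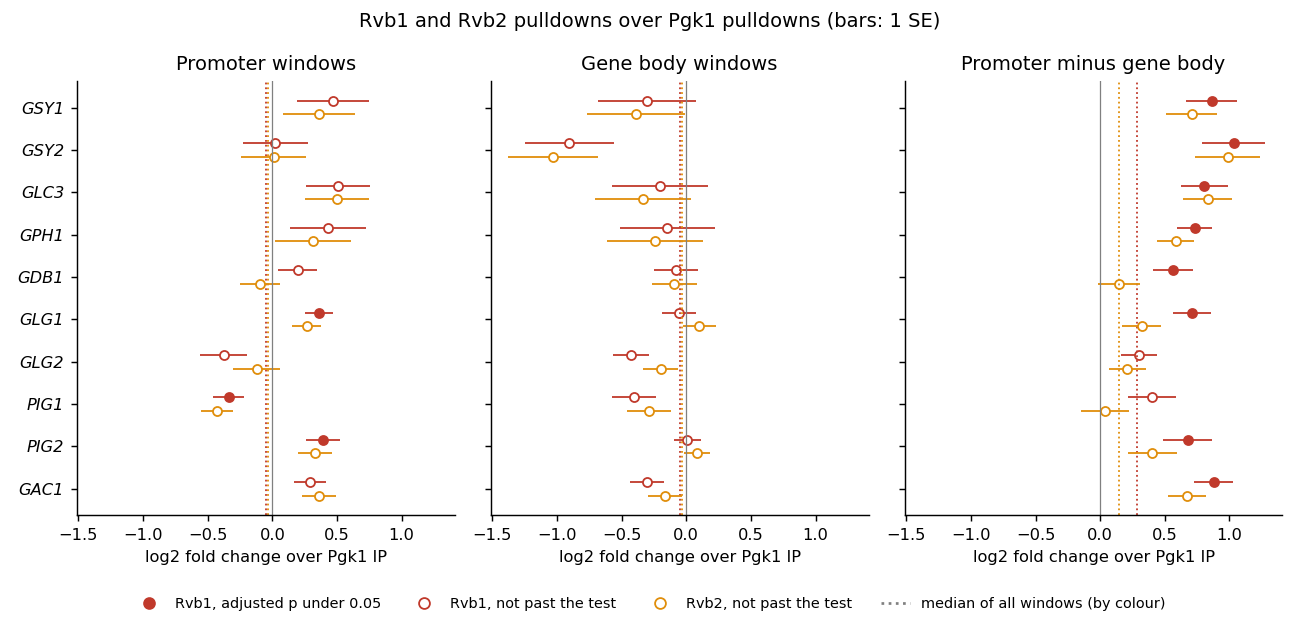
Log2 fold change over the Pgk1 pulldowns with 1 SE for Rvb1 and Rvb2 at promoters, at gene bodies and for the promoter relative to the gene body; filled points passed an adjusted p of 0.05 and dotted lines give the median of all windows. The synthase gene GSY2 lies near 0 at its promoter, at -0.91 and -1.03 at its gene body, and at 1.03 and 0.99 for the promoter relative to the gene body.

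The gene next to a member on its upstream side can share promoter sequence with it. By the reference gene table, 2 members, GLG2 and PIG1, have a divergent upstream neighbour, 7 have a neighbour that runs in the same direction, and the neighbour of GPH1 was not matched to the count tables. The promoter counts of PIG1 and of MCM5, a gene of the replicative helicase, differed by 0 to 5 reads in the 9 libraries. Their windows therefore count almost the same reads, and the lower Rvb values of PIG1 belong equally to MCM5, which stood at -0.30 (SE 0.11) in Rvb1 and -0.41 (SE 0.12) in Rvb2 against Pgk1. In Rvb1 MCM5 was not called (edgeR adjusted p = 0.0627) and PIG1 was (adjusted p = 0.0480), so the PIG1 call lay at the threshold. For GLG2 and its neighbour YJL136W-A the counts differed by 4 to 35 reads. YJL136W-A fell by 0.66 (SE 0.20, edgeR adjusted p = 0.0316) in Rvb1 against Pgk1, beside the -0.38 of GLG2. Upstream of GAC1, SYC1 rose by 0.44 (SE 0.13, edgeR adjusted p = 0.0317). The neighbours of the other members were not called, from -0.43 at RPS21A, upstream of GLG1, to 0.37 at UBC8, upstream of GLC3. Of all promoter windows 24.3% were called in Rvb1 against Pgk1.

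Beyond the 10 members, 15 further genes of glycogen metabolism were looked at: those that supply UDP-glucose, those of the phosphatase and its regulators, a group of kinases and cyclins, and those of an inhibitor of debranching and a glucoamylase. In Rvb1 against Pgk1, 3 of the 15 promoters rose and 0 fell, beside 12.3% higher and 12% lower over all promoter windows. GLC7, the phosphatase that dephosphorylates synthase, rose by 0.66 (SE 0.22, edgeR adjusted p = 0.0412). PHO85, a cyclin-dependent kinase that phosphorylates synthase, rose by 0.59 (SE 0.14, adjusted p = 0.0185), and PCL6, a cyclin of Pho85, rose by 0.53 (SE 0.14, adjusted p = 0.0227). The median of the 15 was 0.22. PGM2 and UGP1, of UDP-glucose supply, stood at 0.47 and 0.13. For Rvb2 edgeR called 0 of the 15, beside 0% of all promoter windows. At an unadjusted p under 0.05 there were 3, near the 17.4% of all promoter windows, and the median was 0.14.

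Against the inputs in Rvb1, 9 of the 15 rose and PCL10 fell, by 0.28, beside the 25.4% and 26.4% of all windows. PGM2, the main phosphoglucomutase gene, rose by 0.97 (SE 0.25), close to GPH1, and GLC7 by 0.75 (SE 0.19). UGP1 rose by 0.67, PCL7 by 0.57, PHO85 and the glucoamylase gene SGA1 by 0.50 each, PCL6 by 0.40, PGM1 by 0.34 and GLC8 by 0.20. At gene bodies PSK1, a kinase gene of sugar partitioning, fell by 0.45 (SE 0.13, edgeR adjusted p = 0.0386) in Rvb1 against Pgk1, the only call among the 15, beside 7.08% of all gene bodies lower. For the promoter relative to the gene body, 6 of the 15 were called higher in Rvb1 than in Pgk1, PCL6 at 0.96, PSK1 at 0.94, PGM2 at 0.92, PCL7 at 0.77, UGP1 at 0.67 and PSK2 at 0.64, beside 24.6% of all genes. Their median was 0.53, between the 0.72 of the members and the 0.28 of all genes, and these lists were not tested against each other.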

How the data were processed

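Raw read counts were deposited by the authors for 500 bp promoter and gene body windows, in 9 libraries. Per the submitters' processing notes, without roles or versions, the tools were Bowtie2, FastQC, Picard, SAMtools, bedtools and deepTools. Genome build, window placement, duplicate handling and multi-mapping were not given in the sources used here, so no coordinates or sequences are printed. Names came from the R64 reference table, which matched 5956 of 7036 identifiers, with strand read from the systematic name.

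Counts were filtered (filterByExpr), TMM scaled and tested per table with edgeR 4.0.16 (R 4.3.3) in 1 fit of 4 groups with 5 residual degrees of freedom, adjusted over all windows. The SE of a log2 fold change was derived from its p. In the joint fit a library had 1 size, the sum of its 2 tables. The scripts were tested on simulated data. The members and lists were chosen with earlier results of these data known; the 10 members, their upstream neighbours and the called genes of the 15 are named. Alternatives were RLE factors, library totals, other filters, DESeq2 1.42.0, own inputs, pulldowns alone, the replicate block, a ceiling correction and leaving out each library; averaging the Rvb inputs, and the replicate block in the joint fit, were added after seeing the data. Promoter counts of the Rvb1 and Rvb2 inputs had a chi-square of 0.607 per degree of freedom, under Poisson noise but above the 0.458 that the ceiling predicts. Against the Pgk1 input they had 2.302 and 2.345, and replicate pulldowns had 4.344 to 9.203. These values cannot tell whether the Rvb1 and Rvb2 inputs are independent. Both were kept as separate samples, and averaging them took the Rvb1 calls against Pgk1 to 0 at promoters and 0 in the joint fit.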

Additional observations from a re-analysis of the deposited data

How the results depend on the processing

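Over the comparisons with Pgk1, 11 values of single members were called, and in their 169 alternatives the call was lost in 83, with 0 changes of sign. The values that were not called had 871 alternatives, of which 30 gained a call and 39 changed sign. Single members were not followed through alternatives of the comparisons with the inputs, where only counts of promoter and of gene body calls were. The joint fit of both windows had alternatives only for Rvb1 and Rvb2 against Pgk1. The cause of these changes was not tested, beyond the fewer samples that some alternatives leave. A group left with 1 library is assumed to vary like the others.

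With library totals over both windows edgeR called 5 promoters in Rvb2 against the inputs, beside 7.44% of all promoters. It called 2 gene bodies in Rvb1 against Pgk1, beside 11.3% of all gene bodies. Gene body values against Pgk1 turned to -0.17 at PIG2 in Rvb1 and to -0.0121 at GLG1 and -0.023 at PIG2 in Rvb2. RLE factors gave 1 gene body call in Rvb1 against Pgk1, beside 15.3% of all gene bodies. DESeq2 called 6 promoters and 1 gene body in Rvb2 against the inputs, beside 21.3% of all promoters and 13.6% of all gene bodies. It called 4 gene bodies in Pgk1 against the inputs and 1 in Rvb1 against Pgk1, beside 3.7% and 18.7%. With each pulldown relative to its own input there were 0 promoter calls in Rvb1 against Pgk1, beside 0% of all promoters. In Rvb1 against the inputs there were 0 calls in either window, beside 0.782% of all promoters and 0.0711% of all gene bodies. GSY2 promoters then stood at -0.028 and PIG2 gene bodies at -0.056 in Rvb1 against Pgk1.

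The pulldowns alone gave 0 promoter calls and 0 calls of the promoter relative to the gene body in Rvb1 against Pgk1. The shares called with them were 6.23% of all promoters and 0.0853% of all genes. In Rvb2 the GSY2 promoter then stood at -0.00180, and at -0.000434 with a correction for the position ceiling, and PIG1 stood at -0.00937 for the promoter relative to the gene body. With the Rvb inputs averaged as 1 library, an alternative chosen after seeing the data, there were 0 promoter calls and 0 calls of the promoter relative to the gene body in Rvb1 against Pgk1, and 1 gene body call against the inputs. The shares called in those comparisons were 10.4% of all promoters, 0% of all genes and 22.1% of all gene bodies. TMM over the joined table gave 3 of 10 calls of the promoter relative to the gene body in Rvb1, beside 18% of all genes. In Rvb2 GDB1 then stood at -0.019 and PIG1 at -0.11.

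Replicate numbers are shared between groups, but no label pairs the samples. The differences between replicate 1 and replicate 2 correlated across windows between each pair of pulldowns, from 0.226 to 0.727 at promoters and from 0.386 to 0.698 in gene bodies, and a correlation across windows of 2 libraries a group shows no pairing by design. With the replicate block over the pulldowns, 0 promoters were called in Rvb1 against Pgk1, beside 21.6% of all promoters. It gave 2 gene body calls in Rvb1 and 1 in Rvb2, beside 21% and 1.09% of all gene bodies. The promoter relative to the gene body was called for 8 members in Rvb1 and 4 in Rvb2, beside 27.2% and 1.46% of all genes. PIG1 stood at -0.020 there in Rvb2. The last of these fits was added after seeing the data.

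Leaving out each library in turn gave these lowest and highest medians and single values. Counts of calls are given here for the inputs left out, since leaving out a pulldown leaves 1 library in its group. Promoter calls ranged from 0 to 7 in Rvb1 against Pgk1, and against the inputs from 0 to 10 in Rvb1, 0 to 7 in Rvb2 and 0 to 5 in Pgk1. The promoter median against Pgk1 ranged from 0.029 to 0.41 in Rvb1 and from 0.057 to 0.39 in Rvb2. With 1 input left out, gene body calls against Pgk1 were 0 in Rvb1, beside 0.725% to 4.15% of all gene bodies. In Rvb2 they were 0, beside at most 0.426%. Against the remaining inputs they were 1 to 2 in Rvb1, beside 21.4% to 25.8%. In Rvb2 and Pgk1 against those inputs they were 0, beside 0% and at most 0.597%. The gene body median in Rvb2 against Pgk1 ranged from -0.48 to 0.12. Calls of the promoter relative to the gene body ranged from 0 to 9 in Rvb1 and from 0 to 3 in Rvb2.

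Of the members that changed sign against Pgk1 at promoters, GSY2 ranged from -0.34 to 0.42 and GDB1 from -0.018 to 0.36 in Rvb1. In Rvb2, GSY2 ranged from -0.36 to 0.40, GDB1 from -0.32 to 0.057, GPH1 from -0.11 to 0.81 and GLG2 from -0.28 to 0.089. In gene bodies of Rvb1, GSY1 ranged from -0.89 to 0.61, GSY2 from -1.51 to 0.0031, GLC3 from -0.76 to 0.62, GPH1 from -0.70 to 0.68, GDB1 from -0.48 to 0.19, GLG1 from -0.22 to 0.087 and PIG2 from -0.0054 to 0.055. In those of Rvb2, GSY1 ranged from -0.98 to 0.52, GLC3 from -0.89 to 0.49, GPH1 from -0.80 to 0.59, GDB1 from -0.50 to 0.17, GLG1 from -0.076 to 0.21 and GLG2 from -0.40 to 0.0092. For the promoter relative to the gene body in Rvb2, GDB1 ranged from -0.025 to 0.33 and PIG1 from -0.27 to 0.14. Depth was lowest in Pgk1 replicate 1, with 806134 counts at promoters.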
